A study of Mus musculus with 3 samples.

Results

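Genes of glycolysis and of the cellular response to low oxygen were examined in mouse embryoid bodies that lacked Hopx, a small homeodomain protein of heart and progenitor cells. The set held 39 genes out of 19803 genes tested, listed by name and role. It comprised 17 glycolytic enzymes, 3 glucose and lactate transporters, 4 kinases that set the flux through the pathway, 13 other targets of the hypoxia-inducible factors (Hif) and 2 Hif alpha subunits. A gene was found through the accession of its array probes and took the value of its brightest probe, and all 39 passed the filter on dim probes.

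There were 3 biological replicates, each a 2-colour Agilent array with RNA of a Hopx-/- culture (null) and of a Hopx+/- culture (heterozygous), both at day 8 of cardiac differentiation. The control carries 1 inactivated allele itself, and no wild-type culture was part of the comparison. Both genotypes were stem cells derived from blastocysts and grown on feeder cells, and the labels do not say how many lines stood behind the 3 replicates, so genotype and line cannot be told apart and a p-value here covers only the spread of these samples. Cells were aggregated in hanging drops of 20 µl and plated in a cardiac medium whose additives were Glutamax (2 mM), ascorbic acid (1 mM) and the growth factors FGF10 (12.5 ng/ml), bFGF (10 ng/ml) and VEGF (5 ng/ml). The labels name no oxygen level. In such bulk samples, fewer cells of a type and less RNA per cell cannot be told apart.

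Glycolysis splits glucose into pyruvate, which lactate dehydrogenase turns into lactate or which enters the mitochondria. When oxygen is low, the Hif alpha subunits escape hydroxylation by the Egln prolyl hydroxylases and breakdown through Vhl, pair with Arnt, and bind short DNA letters near genes for glucose uptake, glycolysis, collagen hydroxylation, mitophagy and vessel growth. Early heart tissue relies on glycolysis, and cardiomyocytes move towards mitochondrial oxidation as they mature.

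The letters that Hif binds have the core ACGTG or GCGTG on either strand, and they were searched in the 250 bases before the most upstream start of each gene in RefSeq (GRCm38.p6). Of the 39 members, 34 had such a promoter entry, and Bnip3l, Epas1, Ndrg1, Plod2 and Slc2a3 had none. The stretches printed here show that members that fell and members that did not pass the test carried the same core. Capitals mark ACGTG, or CACGT where the core lies on the other strand, and each stretch is written 5′ to 3′ on the strand of its gene. Further copies of a core in the same stretch, as in those of Ldha, Slc16a3 and Pgk1, are left in lower case. Those of P4ha1, P4ha2, Bnip3, Egln3, Slc2a1 and Hk2 belong to genes that fell in null cultures, those of Ldha and Slc16a3 to genes that did not pass the test, and that of Pgk1 to a gene at the ceiling of the scanner.
P4ha1 (chr10:59323260-59323295, plus strand): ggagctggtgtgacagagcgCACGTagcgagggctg
P4ha2 (chr11:54100826-54100870, plus strand): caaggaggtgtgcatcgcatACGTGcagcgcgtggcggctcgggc
Bnip3 (chr7:138909589-138909633, minus strand): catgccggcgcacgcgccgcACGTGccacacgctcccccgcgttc
Egln3 (chr12:54204079-54204123, minus strand): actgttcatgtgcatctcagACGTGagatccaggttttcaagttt
Slc2a1 (chr4:119108689-119108733, plus strand): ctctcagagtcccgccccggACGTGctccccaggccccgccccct
Hk2 (chr6:82774482-82774526, minus strand): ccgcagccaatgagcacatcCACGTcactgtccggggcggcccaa
Ldha (chr7:46845737-46845781, plus strand): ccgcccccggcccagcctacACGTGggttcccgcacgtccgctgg
Slc16a3 (chr11:120949020-120949064, plus strand): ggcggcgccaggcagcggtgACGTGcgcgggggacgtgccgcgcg
Pgk1 (chrX:106186930-106186974, plus strand): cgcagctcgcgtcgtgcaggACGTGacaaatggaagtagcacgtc

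Either core was found before 27 of 34 members (79.4%), against 38.6% of 27025 genes in the promoter table. The ACGTG form alone stood before 18 of the 34 (52.9%), against 16.5% of all genes. By role, it stood before 8 of 10 other Hif targets with an entry and before 5 of 17 glycolytic enzymes. Base composition moved with this: the median GC content of these windows was 69.8% for the other Hif targets, 56.4% for the glycolytic enzymes and 52.0% for all genes. By outcome, the ACGTG form stood before 11 of 17 members that were lower, 5 of 9 that did not pass, 0 of 4 that were higher and 2 of 4 at the ceiling. The members without an entry, among them Plod2 and Epas1, were all lower and are not in these counts. All 8 other Hif targets with this form were lower, so role and outcome overlap in this split. Pkm, Tpi1, Aldoa, Eno2, Gpi1, Hk1 and Vegfa had neither core in this window, which says nothing of sites elsewhere.

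Ratios below are log2 values of null over heterozygous, so that -1 is a level at 0.5 of that in the heterozygous culture. By the labels the null RNA carried Cy5 on every array, yet across probes replicate 3 correlated at r = -0.903 and -0.901 with the other arrays, which correlated with each other at r = 0.939. Its direction is therefore not settled by the labels, and it was turned, as it is in the authors' deposited value table. Taking replicate 3 as labelled instead, limma called 0 genes, and 61 genes had an unadjusted p under 0.05. Hopx itself fell by 3.13 (SE 0.11), with values of -2.98, -2.97 and -3.45. Between 61.9% and 72.9% of spots were well above background in a channel, and the number of arrays, 3, limits precision. Of 19657 genes with a measured ratio, 60.2% had an adjusted p under 0.05 by limma, 30.3% with a higher and 29.9% with a lower level in null cultures. A change of at least 2-fold as well was seen for 4.87% that were higher and 6.07% that were lower. These shares are the background for the counts of this main fit only. With each array centred on its median without loess (median centring below), 43.1% of all genes were higher and 15.2% lower.

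Of the 35 members with a measured ratio, 22 were lower in null cultures, 4 were higher and 9 did not pass. At least 2-fold lower were 11 members, and 0 were at least 2-fold higher. The median over the 35 was -0.47, and the median over all genes was 0.0058. The direction went with the role. The other Hif targets were lower almost throughout, while the glycolytic enzymes were spread on both sides of 0.

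**Figure D1:**
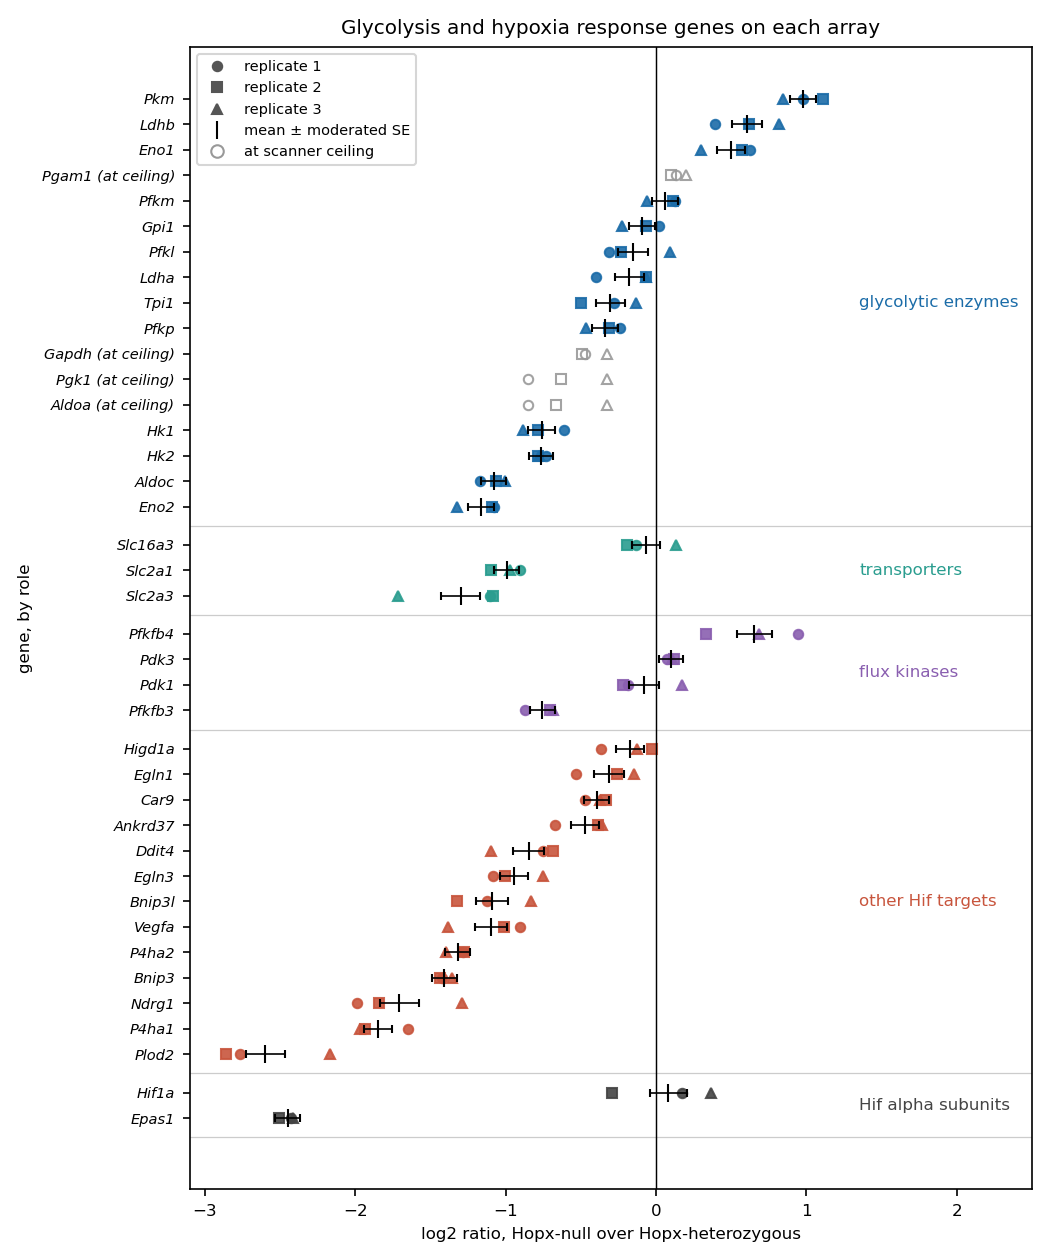
Log2 ratio of null over heterozygous (x axis) for each of the 39 genes (y axis, grouped by role), with a symbol for each of the 3 replicates and a bar for the mean with its moderated SE from limma. The other Hif targets run from -2.60 for Plod2 to -0.17 for Higd1a, and the glycolytic enzymes from -1.16 for Eno2 to 0.98 for Pkm; open grey symbols are the 4 enzymes whose probes sat at the scanner's ceiling.

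The Hif alpha subunits are the oxygen-controlled parts of the factor, and Hif1a and Epas1 (which encodes Hif2 alpha) differed. Epas1 had ratios of -2.43, -2.50 and -2.41 on the 3 arrays, low on all of them and close together. It fell by 2.45 (SE 0.08, n = 3 arrays, adjusted p = 2.28e-07), or 5.46-fold, and 0.504% of the measured genes had a lower ratio. Its other probes gave -1.59 (SE 0.10, adjusted p = 3.03e-06) and -0.23 (SE 0.10, adjusted p = 0.0827), so the size of the fall differed between probes, and 1 probe did not pass. Hif1a had ratios of 0.17, -0.29 and 0.36, which lie on both sides of 0. Its mean of 0.08 (SE 0.12, adjusted p = 0.593) did not pass, and it was -0.06 without replicate 3, while with median centring it was 0.45 and passed (adjusted p = 0.0453). On each array Hif1a stood above Epas1 in ratio, by 2.60, 2.21 and 2.78. These values are of messenger RNA, and Hif1a is known to be set mainly at the level of its protein, which was not measured.

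Among the other Hif targets, 12 of 13 were lower in null cultures (92.3%, against 29.9% of all genes), 7 of them by at least 2-fold, and 0 were higher. Their median was -1.09, and on the single arrays it was -1.08, -1.01 and -1.10. Higd1a, a mitochondrial inner membrane protein induced by hypoxia, was the exception, with ratios of -0.36, -0.03 and -0.12 and a mean of -0.17 (SE 0.09, adjusted p = 0.146).

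Plod2 and P4ha1, enzymes that modify collagen, lay lowest among these targets. Plod2, a lysyl hydroxylase that prepares collagen for cross-linking, had ratios of -2.76, -2.86 and -2.17, less low on replicate 3 than on the others. It fell by 2.60 (SE 0.13, n = 3, adjusted p = 1.35e-06), or 6.05-fold, and 0.412% of measured genes had a lower ratio. Its channel levels were 9.65, 9.24 and 9.76 log2 units in null cultures and 12.41, 12.10 and 11.93 in heterozygous ones. P4ha1, the catalytic subunit of a prolyl 4-hydroxylase of collagen, had ratios of -1.65, -1.93 and -1.96, low on all arrays, and fell by 1.85 (SE 0.09, adjusted p = 1.39e-06). Its dimmer probe gave -0.79 (SE 0.10). P4ha2, the isoenzyme, had ratios of -1.28, -1.28 and -1.39, nearly equal on the arrays, and fell by 1.32 (SE 0.08, adjusted p = 3.79e-06). P4ha1 was the lower of these isoenzymes on each array, by 0.36, 0.66 and 0.57.

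**Figure D2:**
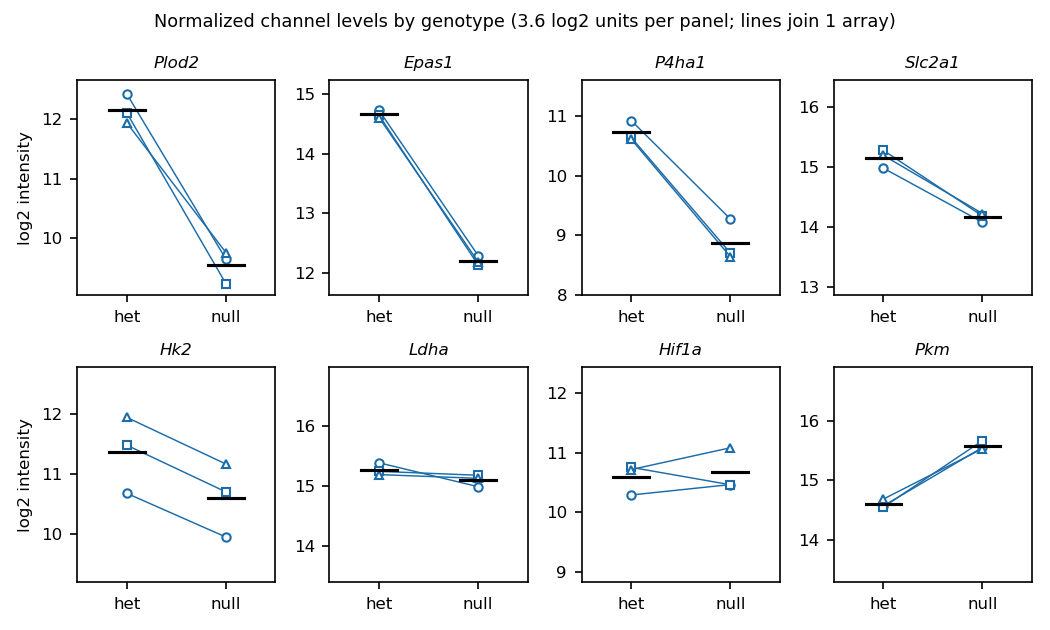
Normalized log2 intensity (y axis, 3.6 log2 units in every panel) of 8 genes in the heterozygous and null channel of each array; a line joins the 2 channels of an array, and a black bar is the mean of 3 arrays. Plod2, Epas1 and P4ha1 fall steeply on all 3 arrays, Slc2a1 and Hk2 less, the lines of Hif1a cross, and Pkm rises on all 3.

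The mitophagy receptors of the Bcl2 family were lower as well. Bnip3 had ratios of -1.42, -1.44 and -1.36, close together on the arrays, and fell by 1.41 (SE 0.08, adjusted p = 2.59e-06), or 2.65-fold. Its other probes gave -1.33 and -0.95. Bnip3l, its relative that clears mitochondria from maturing red cells, had ratios of -1.12, -1.32 and -0.83, least low on replicate 3, and fell by 1.09 (SE 0.11, adjusted p = 4.33e-05). Its other probes gave -1.18, -1.06 and -0.50. Red cell transcripts were higher in the same cultures: 3 of 3 measured erythroid markers rose, at a median of 2.38, and 2 more were at the ceiling.

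Ndrg1, a stress-responsive gene widely used as a marker of hypoxia, had ratios of -1.98, -1.84 and -1.29 and fell by 1.71 (SE 0.13, adjusted p = 1.16e-05). It was low on all arrays and least so on replicate 3. Vegfa, the growth factor of vessels, had ratios of -0.90, -1.01 and -1.38 and fell by 1.097 (SE 0.11, adjusted p = 4.3e-05). The other Vegfa probe read a larger fall, with ratios of -2.50, -2.30 and -2.72. All measured endothelial markers (5 of 5) moved the other way, at a median of 1.08. Ddit4, an inhibitor of mTORC1 signalling, had ratios of -0.75, -0.69 and -1.10, lowest on replicate 3, and fell by 0.85 (SE 0.10, adjusted p = 0.000145).

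Egln3, a prolyl hydroxylase that is itself induced by Hif, had ratios from -1.08 to -0.75, below 0 on all arrays, and fell by 0.94 (SE 0.09, adjusted p = 4.76e-05). Egln1, the main hydroxylase of Hif1 alpha, had ratios of -0.53, -0.26 and -0.15, highest on replicate 3, with a mean of -0.31 (SE 0.10, adjusted p = 0.0229). The probe read only a mean log2 intensity of 6.81, near the dim end, and Egln1 lost its call with the scanner's processed signals (-0.73, adjusted p = 0.0581), with median centring (-0.25, adjusted p = 0.115), without replicate 1 (adjusted p = 0.185), without replicate 2 (adjusted p = 0.0578) and in the authors' deposited table (-0.07, adjusted p = 0.660). Ankrd37, an ankyrin repeat protein, fell by 0.47 (SE 0.09, adjusted p = 0.00246), and Car9, a cell surface carbonic anhydrase that buffers acid, by 0.39 (SE 0.08, adjusted p = 0.00341). Both kept their sign on all 3 arrays, at -0.67, -0.38 and -0.36 for Ankrd37 and -0.47, -0.33 and -0.37 for Car9, while neither passed once arrays were centred on the median in place of loess (adjusted p = 0.179 and 0.0559). The Car9 probe was dim too, at a mean log2 intensity of 7.14, and the scanner's processed signals gave -0.70 for it.

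Of the 17 glycolytic enzymes, 13 had a measured ratio. Among these 6 were lower (46.2%, against 29.9% of all genes), 3 were higher (23.1%, against 30.3%) and 4 did not pass. The median was -0.18, at -0.28, -0.23 and -0.13 on the single arrays, and it turned to 0.25 with median centring without loess, a setting that moved the median of all genes to 0.23. With that centring 4 of the 13 were lower and 4 higher, where 15.2% of all genes were lower and 43.1% higher. With the mean of a gene's probes 4 of the 13 were lower and 3 higher, where 30.4% of all genes were lower. Without replicate 3, 7 were lower. An excess of lower enzymes over all genes therefore depended on the setting.

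The entry into glycolysis was lower. Hk1 and Hk2, the hexokinases that trap glucose in the cell, had nearly the same mean ratio. Hk2, the form of muscle and growing tissue, had ratios of -0.73, -0.78 and -0.78 and fell by 0.76 (SE 0.08, adjusted p = 6.97e-05). Hk1 had ratios of -0.61, -0.78 and -0.88 and fell by 0.76 (SE 0.09, adjusted p = 0.000126), while its dimmer probe gave -0.22 (adjusted p = 0.0432). All of these values are below 0 on every array.

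Gpi1, the glucose phosphate isomerase, had a mean of -0.09 (SE 0.09, adjusted p = 0.399). The phosphofructokinases, which catalyse the committed step, were at -0.15 for the liver form Pfkl (SE 0.10, adjusted p = 0.226), 0.06 for the muscle form Pfkm (SE 0.09, adjusted p = 0.576) and -0.34 for the platelet form Pfkp. Only Pfkp of these 3 passed (SE 0.09, adjusted p = 0.00894), with ratios of -0.24, -0.31 and -0.46. Its dimmer probe did not pass (-0.085, adjusted p = 0.427), and neither did the mean of its probes (-0.21, adjusted p = 0.0531) or its value with median centring (0.0032, adjusted p = 0.984). Pfkm was at 0.48 with median centring and passed (adjusted p = 0.00501). Without replicate 3, Pfkl was at -0.27 and passed (adjusted p = 0.0271), since it stood at -0.31 and -0.23 on replicates 1 and 2 and at 0.09 on replicate 3. Aldoc, the brain form of aldolase, had ratios from -1.17 to -1.001, low on all arrays, and fell by 1.08 (SE 0.08, adjusted p = 1.25e-05). Tpi1, the triose phosphate isomerase, had ratios of -0.28, -0.50 and -0.13 and a mean of -0.30 (SE 0.10, adjusted p = 0.0234). Its call was lost without replicate 1 (adjusted p = 0.0664) and without replicate 2 (adjusted p = 0.190), and its dimmer probe did not pass (-0.12, adjusted p = 0.432).

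The lower part of the pathway held all 3 enzymes that rose. Pkm, the pyruvate kinase of embryonic and muscle tissue, had ratios of 0.98, 1.11 and 0.84 and rose by 0.98 (SE 0.09, n = 3, adjusted p = 2.89e-05), or 1.97-fold. Its levels were 15.55, 15.67 and 15.53 log2 units in null cultures and 14.57, 14.55 and 14.69 in heterozygous ones, and 94.8% of measured genes had a lower ratio. The null levels of Pkm lay close to those of Pgk1 (15.58, 15.65 and 15.84), whose probe was at the scanner's ceiling, while that of Pkm was not. Which Pkm splice form the probe reads was not analysed here. Eno1, the ubiquitous enolase, had ratios of 0.63, 0.57 and 0.30 and rose by 0.50 (SE 0.09, adjusted p = 0.00183). Its null channel was at the ceiling on replicate 1, so that value is a lower bound, and its call was lost in the authors' deposited table (0.27, adjusted p = 0.114). Eno2, the neuronal enolase, moved the other way, at -1.08, -1.09 and -1.32, and fell by 1.16 (SE 0.09, adjusted p = 1.16e-05). In the same null cultures 4 of 4 measured neuroectoderm markers were higher, at a median of 2.26, and their part in the Eno2 ratio was not tested.

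The lactate dehydrogenases differed too. Ldhb, the heart form, which favours the use of lactate, had ratios of 0.39, 0.62 and 0.82, above 0 on all arrays, and rose by 0.61 (SE 0.10, adjusted p = 0.00087). Ldha, the form known as a Hif target, had ratios of -0.40, -0.07 and -0.06 and did not pass (mean -0.18, SE 0.10, adjusted p = 0.149). Its other probes gave 0.08 and -0.22 and did not pass either (adjusted p = 0.535 and 0.207). Ldha carries 5 matches to the ACGTG form, counted on both strands, in the window before its start, where the letters CACGTG count on each strand.

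The 4 enzymes without a ratio were the brightest ones. The scanner's spot medians ended at 65529, and the probes of Aldoa, Pgk1, Gapdh and Pgam1 were at this ceiling in the null channel on all 3 arrays. Aldoa, the muscle aldolase, was at that ceiling in the heterozygous channel on 3 arrays as well, Pgk1, the phosphoglycerate kinase, on 2 and Gapdh on 1. Ratios fitted to such spots, -0.61 for Aldoa, -0.60 for Pgk1 and -0.43 for Gapdh, are ratios of capped signals, and they were not counted. Pgam1, the phosphoglycerate mutase, was below the ceiling in the heterozygous channel on all arrays, and its fitted ratio of 0.14 (SE 0.08, adjusted p = 0.161), likewise of a capped signal, did not pass and was not counted.

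Gapdh, the glyceraldehyde phosphate dehydrogenase, had probes on both sides of the ceiling. Its 4 brightest probes, all at the ceiling in the null channel, gave ratios from -0.43 to -0.25, and each of these ratios of capped signals passed (adjusted p from 0.00225 to 0.0402). Its 3 probes below the ceiling gave 0.31 (SE 0.08, adjusted p = 0.00956), 0.36 (SE 0.09, adjusted p = 0.0091) and 0.25 (SE 0.13, adjusted p = 0.115). On the brightest of these 3 the arrays read 0.28, 0.30 and 0.36, all above 0. Across the array, 146 of the 19803 genes were at the ceiling in a genotype's channel on all arrays.

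Glucose uptake genes were lower. Slc2a1 (Glut1), the general glucose transporter and a Hif target, had ratios of -0.91, -1.10 and -0.97 and fell by 0.99 (SE 0.09, adjusted p = 2.06e-05), or 1.99-fold. Slc2a3 (Glut3), a high affinity transporter of neurons and early embryos, had ratios of -1.10, -1.08 and -1.71 and fell by 1.30 (SE 0.13, adjusted p = 4.81e-05). Its heterozygous channel was at the ceiling on replicate 3, so the fall on that array is at least the size given. Slc16a3 (Mct4), which exports lactate and is a known Hif target, had ratios of -0.13, -0.20 and 0.13 and did not pass (mean -0.07, SE 0.09, adjusted p = 0.569), and with median centring it stood at 0.37 (adjusted p = 0.0195).

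The bifunctional enzymes that set the level of fructose 2,6-bisphosphate, the activator of phosphofructokinase, went opposite ways. Pfkfb3, the form with the strongest kinase activity, had ratios of -0.87, -0.71 and -0.69 and fell by 0.75 (SE 0.09, adjusted p = 0.000102). Pfkfb4 had ratios of 0.94, 0.34 and 0.69, all above 0 with a wide spread, and rose by 0.65 (SE 0.12, adjusted p = 0.0014). The pyruvate dehydrogenase kinases, which close the way into the mitochondria, did not pass: Pdk1 was at -0.08 (SE 0.10, adjusted p = 0.530), with replicate 3 above 0, and Pdk3 at 0.10 (SE 0.08, adjusted p = 0.310). With median centring Pdk3 was at 0.46 and passed (adjusted p = 0.00692).

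The glycolytic enzymes were then set against the other Hif targets. The difference between the medians of the lists was 0.80, 0.78 and 0.97 on the 3 arrays (mean 0.85, SD 0.10, n = 3), in the same direction on each. With the transporters and flux kinases added to the Hif targets it was 0.61, 0.62 and 0.66 (mean 0.63, SD 0.03). No test is given, since 3 arrays cannot go below p = 0.25 in an exact two-sided sign test. Taken from the mean ratios of the 13 and 13 measured genes, the difference was 0.92, and it was 0.91 with median centring without loess. With the 4 ceiling enzymes counted as fitted it was 0.79, and with replicate 3 as labelled 0.25.

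**Figure D3:**
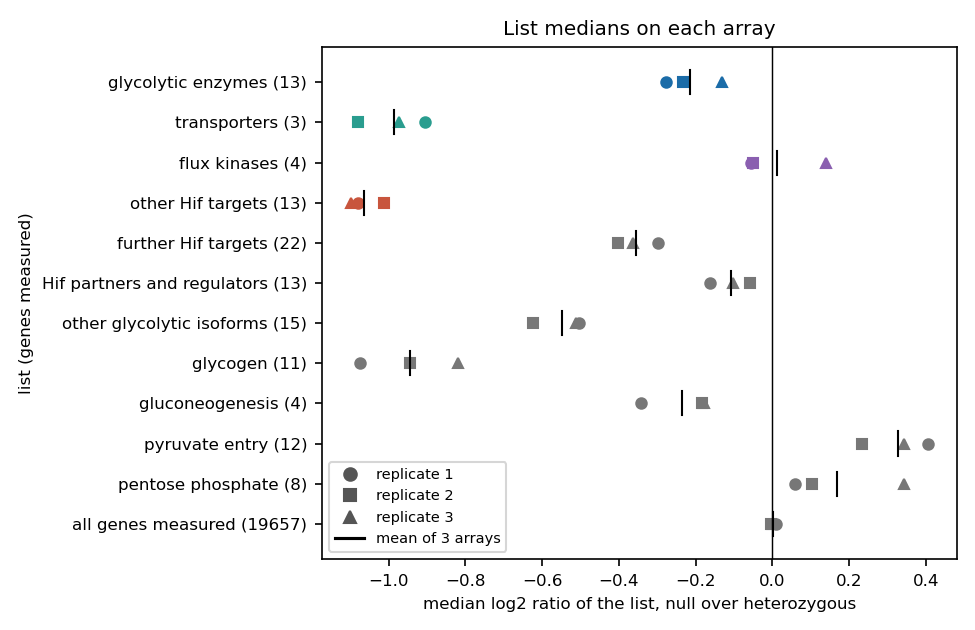
Median log2 ratio of null over heterozygous (x axis) of each gene list (y axis, with the number of genes measured), a symbol for each of the 3 replicates and a black bar for their mean. The other Hif targets sit between -1.10 and -1.01 on the 3 arrays and the glycolytic enzymes between -0.28 and -0.13; pyruvate entry and pentose phosphate lie above 0.

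Paralogues of the same step or role were set against each other within each array. Of 13 pairs, 12 had both members measured, and 7 of these differed in the same direction on all 3 arrays. The share among pairs of unrelated genes was not computed, so this count is not read as a trait of paralogues. The difference was 1.66 ± 0.04 (SD, n = 3) for Eno1 minus Eno2, -0.78 ± 0.10 for Ldha minus Ldhb, -1.41 ± 0.39 for Pfkfb3 minus Pfkfb4 and 0.63 ± 0.10 for Egln1 minus Egln3. Hk1 and Hk2 differed by 0.0036 ± 0.11, less than the spread between arrays. Slc2a1 and Slc2a3 differed by 0.31 ± 0.39, with the array of replicate 3 setting most of it.

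**Figure D4:**
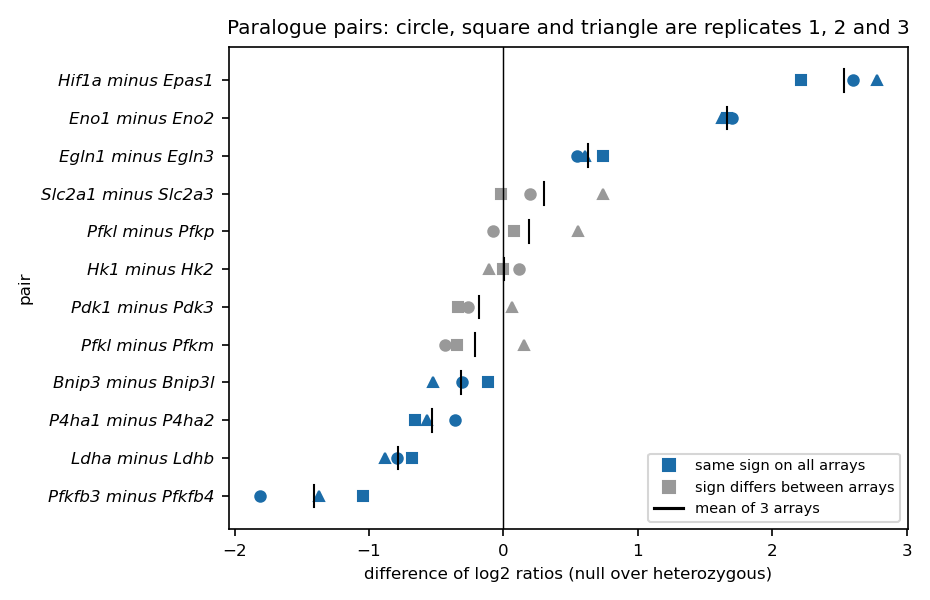
Difference of the log2 ratios of null over heterozygous between the members of 12 paralogue pairs (x axis; pairs on the y axis), with a symbol for each replicate and a black bar for the mean of 3. Blue pairs keep their sign on all arrays, from -1.41 for Pfkfb3 minus Pfkfb4 to 2.53 for Hif1a minus Epas1, and grey pairs do not.

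Other genes of these pathways were listed by role. Of 22 further Hif targets with a ratio, 14 were lower (63.6%, against 29.9% of all genes) and 4 higher, with a median of -0.36, and with median centring 5 were lower and 5 higher, at a median of -0.09. Loxl2, which cross-links collagen, fell by 1.69 (SE 0.10), Adm, the vasodilator adrenomedullin, fell by 1.17 (SE 0.11), and Angptl4, an inhibitor of lipoprotein lipase, rose by 1.67 (SE 0.09). Of the 13 partners and regulators of Hif, 5 were lower (38.5%, against 29.9% of all genes), 1 higher and 7 did not pass (median -0.07). With median centring 1 was lower and 6 were higher (median 0.31), where 43.1% of all genes were higher. Hif3a, a further alpha subunit, fell by 0.93 (SE 0.09) and Cited2, which competes with Hif for its coactivators, by 0.60 (SE 0.08), while Arnt2, a partner of Hif in neural tissue, rose by 0.90 (SE 0.10). Cited2 lost its call with median centring (-0.17, adjusted p = 0.221). In heterozygous cultures Arnt2 was well above background on 2 of 3 arrays, and the scanner's processed signals gave 2.55 for it.

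Isoforms of glycolytic enzymes and transporters outside the members were lower in 11 of 15 (73.3%, against 29.9% of all genes) and higher in 2. Their median was -0.56 (7 lower, 3 higher and a median of -0.26 with median centring). Pgam2, the muscle phosphoglycerate mutase, had ratios of -3.68, -3.59 and -3.89 and fell by 3.72 (SE 0.09, adjusted p = 1.13e-07), or 13.2-fold. Eno3, the muscle enolase, fell by 1.73 (SE 0.11), and Hkdc1, a hexokinase relative, fell by 3.17 (SE 0.13). All measured cardiomyocyte markers (7 of 7) fell with them, at a median of -3.38, and so did 6 of 6 visceral endoderm markers, at a median of -3.14. The mean log2 level of the cardiomyocyte markers was 8.11 to 8.83 over the null channels and 12.2 to 12.5 over the heterozygous ones, and that of the visceral endoderm markers 10.1 to 10.5 and 13.2 to 13.4. These markers stayed well above background in both channels. The share of these cell types in the changes of the members was not tested.

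Genes of glycogen metabolism had a median of -0.95. Of 11, 6 were lower (54.5%, against 29.9% of all genes), 5 of them by at least 2-fold, and 0 were higher. With median centring 6 were lower, 4 higher and the median -0.55. Gyg, glycogenin, which primes the chain, fell by 2.63 (SE 0.11), Ppp1r3c, which targets a phosphatase to glycogen, by 2.03 (SE 0.13), and Pygm, the muscle phosphorylase, by 1.36 (SE 0.09). Of 4 measured gluconeogenic genes, 2 were lower (50%, against 29.9% of all genes) and 0 higher (median -0.26, or -0.012 with median centring). G6pc3 fell by 0.40 (SE 0.09) and stood at 0.03 with median centring. The other was Pck1 (adjusted p = 0.0126), given without a size because in null cultures it was not well above background on any array, and its call was lost without replicate 1 (adjusted p = 0.0871) and in the authors' deposited table (adjusted p = 0.825).

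The routes that draw on glycolysis had medians above 0. Of 12 genes of pyruvate entry and pyruvate dehydrogenase, 8 were higher (66.7%, against 30.3% of all genes) and 4 lower, with a median of 0.32, and with median centring 8 were higher and 1 lower at a median of 0.68. On leaving out replicate 1, 5 were higher, where 25.9% of all genes were higher. Pdhb, a subunit of the dehydrogenase, rose by 1.69 (SE 0.09, and by 0.97 as the mean of its probes) and Pdp2, the phosphatase that activates it, by 0.84 (SE 0.09), while Pdk2, a kinase that inhibits it, fell by 1.02 (SE 0.09). Of 8 pentose phosphate genes, 3 were higher (37.5%, near the 30.3% of all genes), 1 lower and 4 did not pass (median 0.11). With median centring 5 were higher and 0 lower (median 0.51), where 43.1% of all genes were higher. Those that rose were Pgd by 0.88 (SE 0.08), Taldo1 by 0.67 (SE 0.09) and Tkt by 0.53 (SE 0.13), of which Tkt read 0.24, 0.44 and 0.92 on the 3 arrays.

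Most of the remaining cell type markers rose. Of the pluripotency markers 5 of 6 rose and 1 fell (median 0.95), and of the feeder and fibroblast markers 5 of 6 rose (median 0.74), and their part in the results was not tested.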

How the data were processed

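The scanner's median spot intensity in both channels, with local backgrounds and flags, was deposited as the scanner software gave it, without normalization. Per the file headers, that software was version 11.5.1.1 of Agilent Feature Extraction. The submitters' processing notes give it as 8.5.1.1. The authors also deposited a value table, read here as log2 ratios with replicate 3 turned, since its columns had slopes of 0.946, 0.953 and -0.948 against the scanner ratios. Its normalization and centring are not stated, and its column medians were -0.10, -0.11 and 0.07. It served as an alternative.

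Analysis used limma 3.58.1 (R 4.3.3). Backgrounds were subtracted by normexp (offset 50) and log2 ratios normalized by loess within arrays, with control and outlier spots at weight 0. Medians were used because the scanner files used here hold no mean foreground. Outlier spots were left out, spots of a probe were averaged, and a probe was kept if 1 genotype's channel was well above background on all 3 arrays, which left 24575 of 39429 probes. Each ratio was tested against 0 (lmFit, eBayes), with Benjamini-Hochberg adjustment over 24553 probes that gave a test. Every SE of a gene is the moderated SE of eBayes. A probe at the scanner's ceiling in a genotype's channel on all arrays got no ratio, a step added after the data were seen.

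A RefSeq table (GRCm38.p6) named 28025 probes (71.1%) by accession. The array design is on build mm9, so its coordinates were not used. Named genes are all members, Hopx, and up to 3 called genes of each pathway list with the largest change and equal sign on all arrays. Members, lists and tests were chosen with earlier results of these data known. The fit was tested on simulated data.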

Additional observations from a re-analysis of the deposited data

How the results depend on the processing

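Without any array in turn, the median ratio of the glycolytic enzymes was -0.27 to -0.15, that of the other Hif targets -1.08 to -0.98, their difference 0.77 to 0.93, and Hif1a stood at -0.058 to 0.27. Centring each array on its median without loess, with all genes then at a median of 0.23, put the glycolytic median at 0.25 and the Hif target median at -0.66, and it turned Gpi1 to 0.34, Pfkl to 0.28, Pfkp to 0.0032, Tpi1 to 0.13, Ldha to 0.25, Slc16a3 to 0.37, Pdk1 to 0.26, Higd1a to 0.26 and G6pc3 to 0.025. With replicate 3 as labelled, 0 glycolytic enzymes were called higher, 0 lower, and 0 Hif targets lower. The Hif target median was then -0.39 and the difference 0.25, with Gpi1 at 0.060, Hif1a at -0.16 and Tkt at -0.078, as a single array of opposite sign brings about. An ordinary t statistic, which shares no spread between probes, called 1 glycolytic enzyme higher, 3 lower and 4 Hif targets lower, and 24 of 56 tested named genes lost their call. By that statistic 9.92% of all genes were higher and 10.3% lower. With no replicate block, each channel being a sample, 3 glycolytic enzymes were called lower, where 20.8% of all genes were lower. With the mean of a gene's probes the Hif target median was -0.96 and the difference 0.80, with a dye term the Hif target median was -1.03, and in the authors' deposited table the glycolytic median was -0.30 and the difference 0.76. With the enzymes at the ceiling counted as fitted, an alternative chosen after seeing the data, the glycolytic median was -0.30 and the difference 0.79. Causes not given here were not tested. Under the scanner's own processed signals and no background subtraction, the counts of glycolytic and Hif target calls stayed within 1.5 times and their medians within 1 SD between arrays. Both other filters on dim probes could not move these medians, since all 39 members were well above background in both channels on every array. With the brightest probe off the ceiling (also chosen after seeing the data), counts and medians were exactly those of the main fit. That setting therefore says nothing of the enzymes at the ceiling. The processed signals put the Hif target median at -1.11 and the difference at 0.97, and among the pathway lists they put the further Hif targets at -0.51 and the other glycolytic isoforms at -0.72, which stood at -0.28 with no filter on dim probes. The ceiling of the scanner and the background limit what very bright and very dim probes can show.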
